A study of Mus musculus with 12 samples.

Results

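The constitutive proteasome subunit genes were followed through the transcriptomes of mouse 4T1 breast cancer cells. They were taken by symbol, as the protein-coding genes Psma1 to Psma7, Psmb1 to Psmb7, Psmc1 to Psmc6 and Psmd with a number, leaving out the immunoproteasome genes Psmb8, Psmb9 and Psmb10. The rule found 34 genes, all of them in both deposited tables, among 30803 genes listed for the WT and GSH libraries and 17558 listed for the Ctrl and Cas9 libraries. They comprise 7 genes of the alpha rings and 7 of the beta rings of the 20S core, 6 ATPases and 14 non-ATPase genes of the 19S regulatory particle.

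4T1 is a line of mouse mammary carcinoma cells from the BALB/c strain, and mRNA was sequenced from 4 groups that the labels name by genotype only. The WT and GSH groups had 3 libraries each, the Cas9 group 3, and the Ctrl group 1 library analysed here (Ctrl 3). All groups carry the same cell line and culture labels, with growth in DMEM and serum, and the submitters paired GSH with WT and Cas9 with Ctrl. The labels do not expand GSH, name no gene targeted with Cas9, and do not say whether a group is 1 clone or whether replicates were separate cultures, so p-values measure only the spread between these libraries, which may be technical.

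The proteasome is the protease that degrades ubiquitin-tagged proteins. Its 20S core is a barrel of stacked rings, in which the outer alpha rings gate the entrance and the inner beta rings hold the proteolytic sites, and the 19S particle at its end binds ubiquitin chains, removes them and unfolds the substrate with a ring of ATPases. In many cells the subunit genes rise together through NFE2L1, a transcription factor that binds antioxidant response elements with small MAF partners, and carcinoma cells are known for high proteasome demand.

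Since the subunit genes are known for shared control, their promoters were searched for 5 motifs in the 250 bases before each RefSeq start (build GRCm38.p6), on both strands. The table held 28 of the 34 genes; Psmb1, Psmb2, Psmb7, Psmc3, Psmd3 and Psmd7 were missing. The antioxidant response element core TGACNNNGC was found for 5 of 28 genes (17.86%) and for 11.52% of all 27025 genes in the table. An ETS site, CCGGAAGT, was found for 4 of 28 (14.29%) and for 3.23% of all genes. CCAAT was found for 39.29% against 37.49%, the E-box CACGTG for 7.14% against 6.86%, and the heat shock element GAANNTTC for 3.57% against 7.73%. None of these matches overlapped a match of another of the motifs. A match describes letters in this window and is no evidence of binding. The element cores are shown because NFE2L1 and NFE2L2 are known to bind such letters, in capitals with up to 40 bases on each side. All lie upstream of the start, read 5′ to 3′ toward the gene.
Psmb5, 47 bases before the start, chr14:54617996-54618082, minus strand: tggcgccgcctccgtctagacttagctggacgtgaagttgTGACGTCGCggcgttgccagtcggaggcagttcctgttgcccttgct
Psmb6, 9 bases before the start, chr11:70525308-70525356, plus strand: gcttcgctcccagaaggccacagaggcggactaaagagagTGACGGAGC
Psmd9, 31 bases before the start, chr5:123228119-123228189, plus strand: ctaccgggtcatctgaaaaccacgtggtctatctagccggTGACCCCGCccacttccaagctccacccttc
Psmc6, 227 bases before the start, chr14:45329574-45329645, plus strand: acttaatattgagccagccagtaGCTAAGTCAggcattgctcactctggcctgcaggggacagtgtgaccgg
Psmd12, 247 bases before the start, chr11:107479278-107479329, plus strand: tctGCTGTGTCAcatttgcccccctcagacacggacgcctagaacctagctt

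The ETS sites are shown because their share stood furthest above that of all genes. Psmc2 has a site at each of 2 starts.
Psmc1, 29 bases before the start, chr12:100110133-100110201, plus strand: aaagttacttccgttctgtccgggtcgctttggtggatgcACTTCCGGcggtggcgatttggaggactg
Psmc2, 85 bases before the first start, chr5:21785150-21785237, plus strand: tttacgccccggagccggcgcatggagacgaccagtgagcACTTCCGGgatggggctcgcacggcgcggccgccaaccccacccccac
Psmc2, 25 bases before the second start, chr5:21786682-21786746, plus strand: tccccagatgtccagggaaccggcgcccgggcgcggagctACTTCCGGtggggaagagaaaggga
Psmd6, 45 bases before the start, chr14:14120946-14121030, minus strand: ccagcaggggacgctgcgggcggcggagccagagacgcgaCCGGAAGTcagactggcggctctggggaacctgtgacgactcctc
Psmd12, 18 bases before the start, chr11:107479470-107479527, plus strand: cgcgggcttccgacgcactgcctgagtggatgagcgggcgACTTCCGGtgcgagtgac

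Depth, in whole reads recovered from the deposited FPKM values (fragments per kilobase of gene, scaled to the library total), was 18532848 to 30170933 in the 6 libraries of WT and GSH. It was 33090352 to 39096706 in the 4 libraries of Ctrl and Cas9. Each member rested on 232 to 11039 reads per library in the first table and on 722 to 16940 in the second. All 9 epithelial carcinoma markers were above 0 in every library. The 18 leukocyte markers in WT and GSH summed to 38.6 to 57.1 RPM (reads scaled to the library total) per library, where 13 to 17 were above 0 and Cd3e or Cd8a was at 0 in 5 of the 6 libraries. All 18 were above 0 in Ctrl and Cas9 libraries, with 3946 to 8092 RPM, which goes against a label of cultured carcinoma cells alone. In such bulk samples fewer cells of a type and less RNA per cell cannot be told apart. WT 3, GSH 2 and GSH 3 stood apart by 10 secretory gland genes (Mup, Obp, Bpif and Lcn families). These summed to 320, 441 and 290.2 RPM there and to 1.76 to 12.8 RPM in the other 3 libraries of that table. They were listed because earlier results of these data had shown them in WT 3, GSH 2 and GSH 3, so the difference is a description only.

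The members were abundant transcripts in both tables. In WT libraries their mean FPKM ran from 3.98 for Psmd9 to 105 for Psmc5, with a median of 39.7, above the levels of 90.01% of tested genes. Psmc5, Psmc1 and Psma6, with means of 105, 94.98 and 85.9 FPKM, were the 3 highest in WT, while Psmd9, Psmd5 and Psmd10, with 3.98, 6.93 and 8.47 FPKM, were the 3 lowest. Those 3 genes are known to encode assembly chaperones of the 19S base, and not stable subunits. Replicates lay close together, as the median coefficient of variation of a member was 3.92% in WT and 2.70% in GSH.

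The order of levels differed between the tables. In Ctrl 3 the highest members were Psmb4 with 235 FPKM, Psmb1 with 191 FPKM and Psmb3 with 184 FPKM, and Psmd9 was again the lowest with 12.6 FPKM. Across the 34 genes, Spearman's rho of FPKM was 0.99 between WT and GSH means, 0.99 between Ctrl 3 and the Cas9 mean, and 0.50 between WT and Ctrl 3 (a description across genes, with no test). The gene lengths behind the values are not stated and were inferred while whole reads were recovered. The annotated length gave whole reads for 29696 of 30803 genes above 0 in WT and GSH. In Ctrl and Cas9 it did so for 595 of 17018, and most others took an inferred length. The length found for WT and GSH was a median of 2.00 times that found for Ctrl and Cas9. It was over 1.5 times for 25 of the 34 and up to 3.88 times, for Psma2. Levels of the members were therefore tested within each table only.

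**Figure D1:**
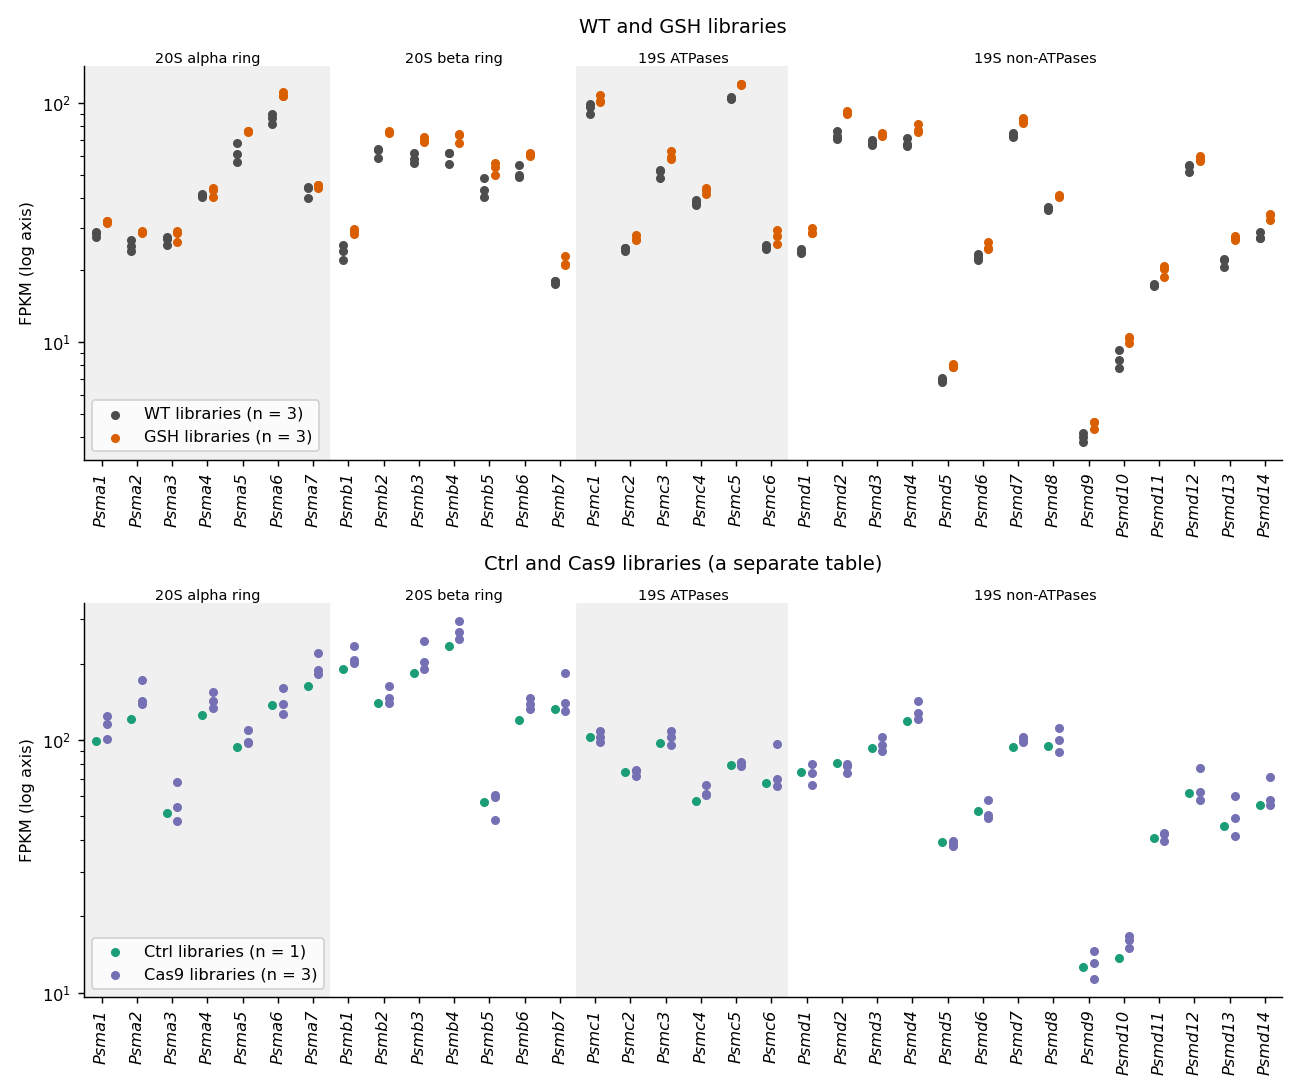
FPKM of the 34 members (log axis) in each WT and GSH library (upper panel) and each Ctrl and Cas9 library (lower panel), with 1 point per library and genes grouped by subcomplex. In the upper panel most GSH points lie above the WT points of the same gene, and WT means run from 3.98 to 105 FPKM.

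The comparison of GSH with WT asked how the genotype labelled GSH differs from the genotype labelled WT. By limma on log2(FPKM + 1), two-sided with Benjamini-Hochberg adjustment over 12283 genes, 29 of the 34 members rose in GSH, 0 fell and 5 did not pass the threshold of 0.05. For the same test 20.6% of all genes were called higher and 16.4% lower, and among genes averaging at least 10 FPKM, a level chosen after the values were seen, 31.3% were called higher. The changes were small. On the log2 scale the members' median change was 0.19 (range 0.04 to 0.33), beside 0.02 over all tested genes, and all 34 values were above 0. In 31 of the 34 every GSH library lay above every WT library, as in 29.0% of all tested genes. That share was not computed for genes at the members' levels. The members took 0.434 to 0.455% of the summed FPKM in WT libraries and 0.525 to 0.529% in GSH libraries. Of the recovered reads they took 0.382 to 0.405% in WT and 0.449 to 0.455% in GSH. Across the 34 genes, as a description, Spearman's rho of the change was 0.10 with WT FPKM and -0.16 with gene length.

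**Figure D2:**
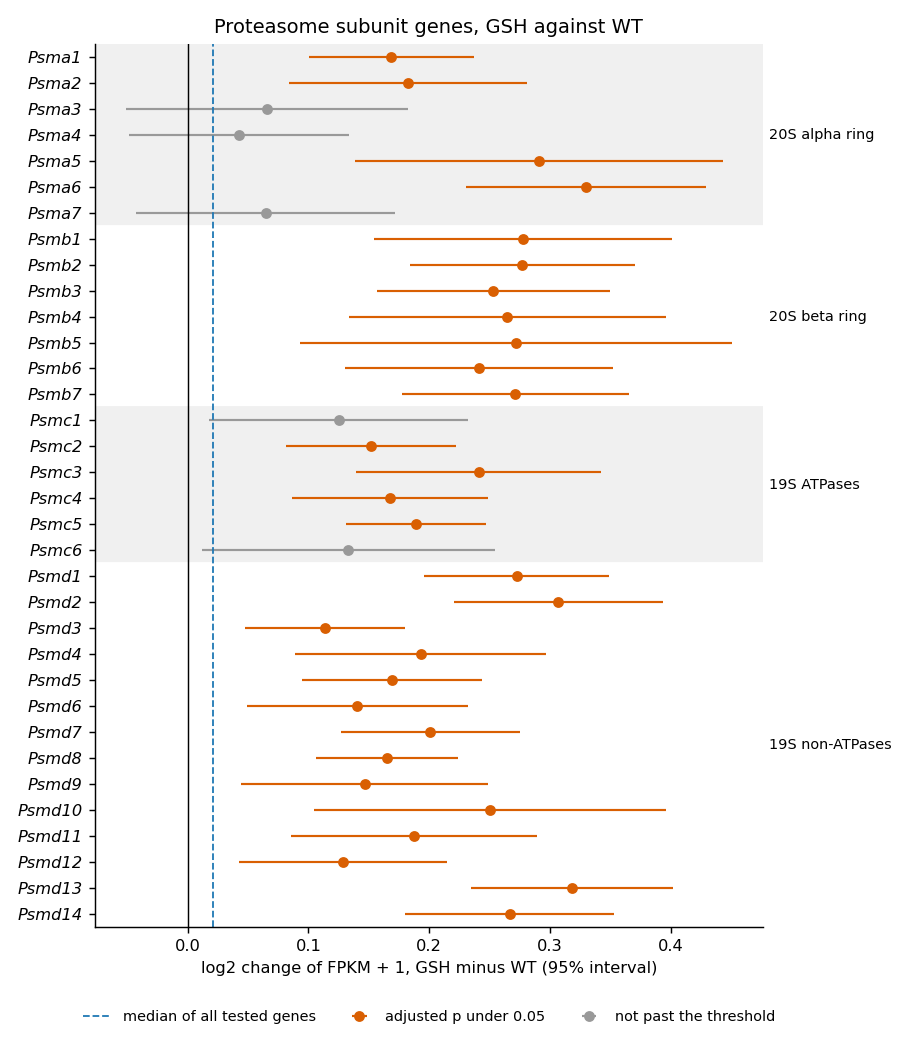
Log2 change of FPKM + 1 in GSH against WT for each member (points) with its 95% interval from limma (bars), grouped by subcomplex; the dashed line is the median of all tested genes. All 34 points lie above 0, the 29 coloured ones pass the threshold, and the beta ring points fall between 0.24 and 0.28.

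The alpha ring, which gates the core, had the widest spread of the 4 groups, with an SD of 0.11 over its log2 changes beside 0.014 in the beta ring, 0.043 in the ATPases and 0.067 in the non-ATPases. Of its 7 genes 4 rose (Psma1, Psma2, Psma5 and Psma6) and 3 did not pass, with log2 changes from 0.04 to 0.33 (median 0.17). Of all tested genes 20.6% were called higher. Psma6 measured 86.7, 81.3 and 89.8 FPKM in WT 1, 2 and 3 and 111, 107 and 107 FPKM in GSH 1, 2 and 3. The groups did not overlap, and the log2 change of 0.33 ± 0.04 (SE) was the largest among the 34 (adjusted p = 0.00289). Psma1 measured 28.6, 27.5 and 28.7 FPKM in WT and 32.2, 32.2 and 31.4 FPKM in GSH. Its WT libraries all lay below its GSH libraries, with a change of 0.17 ± 0.03 (adjusted p = 0.00623). Psma4 measured 41.4, 40.3 and 41.8 FPKM in WT and 43.9, 40.3 and 43.0 FPKM in GSH. Here the groups overlapped, GSH 2 lying among the WT libraries, and the change of 0.04 (95% interval -0.05 to 0.13) did not pass (adjusted p = 0.415). Psma3 and Psma7 overlapped likewise, with changes of 0.07 and 0.06 and adjusted p of 0.330 and 0.295. Psma2 rose by 0.18 but lost its call without WT 1 (adjusted p = 0.0536).

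The beta ring, which carries the proteolytic sites, moved most evenly. All 7 genes rose, without overlap between groups. Their log2 changes lay between 0.24 and 0.28, with a spread below the median standard error of 0.05 of a single gene. Over all tested genes 20.6% were called higher, and 29.0% had every GSH library above every WT library. The 3 catalytic subunits were Psmb5 (chymotrypsin-like activity), Psmb6 (caspase-like) and Psmb7 (trypsin-like). Psmb5 measured 43.2, 40.4 and 48.7 FPKM in WT and 56.3, 53.8 and 50.001 FPKM in GSH. WT 3 was the highest WT library and GSH 3, the lowest GSH library, stood only just above it, so that the change of 0.27 ± 0.07 (adjusted p = 0.0306) lost its call without WT 1, WT 2, GSH 1 or GSH 2 (adjusted p of 0.0879, 0.0748, 0.0868 and 0.0781). Psmb6 measured 50.1, 49.0 and 55.1 FPKM in WT and 60.0, 61.6 and 60.9 FPKM in GSH. The GSH libraries lay close together above all WT libraries, with a change of 0.24 ± 0.05 (adjusted p = 0.00944). Psmb7 measured 17.97, 17.5 and 17.9 FPKM in WT and 22.9, 21.2 and 20.9 FPKM in GSH. It was the lowest of the beta ring genes in both groups and changed by 0.27 ± 0.04 (adjusted p = 0.00404). Psmb2, a noncatalytic subunit, measured 58.8, 64.5 and 63.4 FPKM in WT and 74.7, 76.2 and 75.7 FPKM in GSH. Its groups lay apart, with the smallest p of the ring and a change of 0.28 ± 0.04 (adjusted p = 0.00378). Pseudogenes named for members exist in the reference (Psmb5-ps, Psmb6-ps, Psmb6-ps2 and Psmb7-ps2), and since the counting is not described in the sources used here, reads of these 3 genes may be shared with them.

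Of the 6 ATPase genes, which encode the unfolding ring, 4 rose (Psmc2, Psmc3, Psmc4 and Psmc5) and 2 did not pass, although none overlapped between groups. Their changes ran from 0.13 to 0.24 with a median of 0.16. The shares over all tested genes were 20.6% called higher and 29.0% with every GSH library above every WT library. Psmc5 measured 104, 105 and 106 FPKM in WT and 121, 118 and 120.4 FPKM in GSH. This most abundant member varied little within either group and changed by 0.19 ± 0.02 (adjusted p = 0.00307). Psmc3 measured 48.3, 51.8 and 52.2 FPKM in WT and 58.4, 62.7 and 59.5 FPKM in GSH. All its GSH libraries were the higher ones, and at 0.24 ± 0.04 its change was the largest of the ATPases (adjusted p = 0.00706). Psmc6 measured 25.2, 24.6 and 25.5 FPKM in WT and 29.5, 25.7 and 27.9 FPKM in GSH. GSH 2 lay just above WT 3, and the change of 0.13 ± 0.05 did not pass (adjusted p = 0.0820) but did without GSH 2 (0.18, adjusted p = 0.0211) and on recovered reads (limma voom, adjusted p = 0.0357). Psmc1 missed the threshold as well, with means of 94.98 ± 4.70 FPKM in WT and 104 ± 3.48 FPKM in GSH (SD, n = 3 each) and an adjusted p of 0.0689 by limma.

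All 14 non-ATPase genes rose without overlap between groups, by 0.11 (Psmd3) to 0.32 (Psmd13), with a median of 0.19. Among all tested genes 20.6% were called higher, and in 29.0% every GSH library lay above every WT library. Psmd13, a subunit of the 19S lid, measured 20.7, 22.2 and 21.9 FPKM in WT and 27.1, 27.7 and 26.8 FPKM in GSH. It had the smallest p of the 34 members, with a change of 0.32 ± 0.03 (adjusted p = 0.00219) and clearly separate groups. Psmd1, a large scaffold subunit of the 19S base, measured 23.5, 23.8 and 24.5 FPKM in WT and 28.6, 28.6 and 30.1 FPKM in GSH. Its GSH libraries all lay above the WT range, and the change was 0.27 ± 0.03 (adjusted p = 0.00247). Psmd9 measured 3.82, 4.14 and 3.99 FPKM in WT and 4.61, 4.33 and 4.61 FPKM in GSH. The lowest GSH library stood close to the highest WT library, and the change of 0.15 ± 0.04 (adjusted p = 0.0367) lost its call without WT 1, WT 3, GSH 1 or GSH 3 (adjusted p of 0.109, 0.0836, 0.0996 and 0.105).

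The other 11 non-ATPase genes include the ubiquitin receptor Psmd4 and the deubiquitinase Psmd14, with changes of 0.19 and 0.27, and Psmd2, the partner scaffold of Psmd1, with 0.31. The chaperone genes Psmd5 and Psmd10 rose by 0.17 and 0.25. Without Psmd5, Psmd9 and Psmd10, 15 of 17 genes of the 19S particle rose, with a median of 0.19, beside 20.6% of all tested genes. Calls of Psmd3, Psmd4, Psmd6, Psmd10, Psmd11 and Psmd12 were lost without 1 or more single libraries, WT 1 among them for each of the 6. Psmd12, which rose by 0.13, had an adjusted p of 0.0678, 0.0719, 0.0869, 0.0506 and 0.0818 without WT 1, WT 2, GSH 1, GSH 2 and GSH 3. Psmd3 had an adjusted p of 0.0715 without WT 1, 0.0542 without WT 2, 0.0603 without GSH 2 and 0.0510 without GSH 3. Psmd6 had an adjusted p of 0.0832, 0.0843, 0.0647 and 0.0511 without WT 1, WT 2, GSH 1 and GSH 2. Psmd10 had 0.0633, 0.0579 and 0.0652 without WT 1, GSH 2 and GSH 3, Psmd11 had 0.0540 and 0.0572 without WT 1 and GSH 3, and Psmd4 had 0.0538 without WT 1.

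Library by library, the rise was of like size in the 3 GSH libraries. Against the WT mean, the members' median difference in log2(FPKM + 1) was 0.20 in GSH 1, 0.20 in GSH 2 and 0.18 in GSH 3. The WT libraries were at -0.01, -0.03 and 0.04, and in WT 3 all 34 members lay above the WT mean. WT 3 is also 1 of the 3 libraries with secretory gland transcripts, at 320 RPM. Within WT 3, GSH 2 and GSH 3 the median change was 0.15 with 33 of 34 values above 0, and within WT 1, WT 2 and GSH 1 it was 0.23 with all 34 above 0. Neither 3-library fit called a member. With a term for WT 3, GSH 2 and GSH 3 in the full fit 25 members were called higher, and the median was 0.19. Over all tested genes that fit called 2052 higher.

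**Figure D3:**
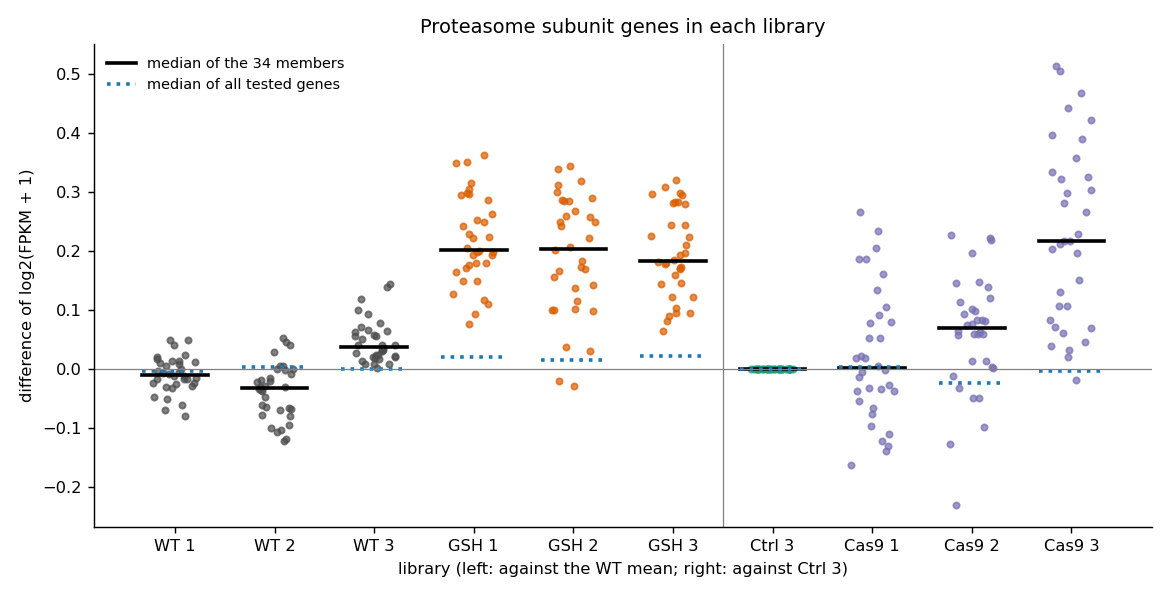
Difference of log2(FPKM + 1) of each member (points) from the WT mean in WT and GSH libraries (left) and from Ctrl 3 in Ctrl and Cas9 libraries (right); black bars are the members' medians and dotted bars the medians of all tested genes. The GSH medians are 0.20, 0.20 and 0.18, while in the Cas9 libraries they are 0.00, 0.07 and 0.22.

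Scaling moved the size of the rise more than its direction. All 34 changes were above 0 under each of the scalings tried. When FPKM was rescaled to the total without mitochondrial genes, 25 members were called higher with a median of 0.15, beside 15.4% of all tested genes. That scaling turned the split of calls over all genes from 2533 higher and 2014 lower to 1890 higher and 2515 lower, and the median of all genes from 0.02 to -0.01. Of the 29 members called, 20 were called under every alternative other than the fits on 3 libraries. Leaving out 1 library left 20 (without WT 1) to 28 members called, beside 1663 to 2089 of all tested genes called higher.

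Beyond the 34 genes, 51 genes of the pathway were listed by role, of which 46 were tested in GSH against WT. Of these 22 rose, 1 fell and 23 did not pass, with a median change of 0.13, beside 20.6% of all tested genes called higher and 16.4% lower. The other 19S subunit genes did not move past the threshold (0 of 2). The ubiquitin receptor Adrm1 measured 22.9, 24.0 and 23.6 FPKM in WT and 23.7, 23.8 and 23.1 FPKM in GSH, with overlapping groups and a change of 0.0034 whose sign turned under other scalings. Sem1 changed by 0.07 (adjusted p = 0.328). Among the activators and the inhibitor of the core 3 of 5 rose, and the 2 with the smallest p were Psme4 (PA200), by 0.23 ± 0.03 (adjusted p = 0.00395), and Psme3 (PA28 gamma), by 0.13 ± 0.02 (adjusted p = 0.00886). Of 5 assembly chaperone genes tested 1 rose, a share near the 20.6% of all genes. It was Psmg4 (0.19 ± 0.04, adjusted p = 0.0152), which lost its call without WT 1 (adjusted p = 0.0539). Pomp, the maturation factor of the core, measured 12.7, 11.8 and 12.2 FPKM in WT and 14.4, 12.9 and 13.0 FPKM in GSH. The groups did not overlap, but the change of 0.13 ± 0.05 missed the threshold (adjusted p = 0.0824). Pomp passed it on recovered reads with limma voom (adjusted p = 0.0367) and in limma with a term for replicate number (adjusted p = 0.0430).

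Several genes that bring substrates to the proteasome rose in GSH, and their counts stand beside 20.6% of all tested genes called higher, or 31.3% of those averaging at least 10 FPKM. Among ubiquitin shuttle factors 4 of 6 rose, led by Rad23b (0.27 ± 0.03, adjusted p = 0.00190). Of the unfoldase Vcp (p97) and its adaptors 4 of 8 rose. Vcp measured 46.1, 46.7 and 47.6 FPKM in WT and 58.8, 59.6 and 59.3 FPKM in GSH, 2 narrow ranges far apart, with a change of 0.33 ± 0.02 (adjusted p = 0.00147), and its adaptor Nploc4 rose by 0.30 ± 0.03 (adjusted p = 0.00244). Of the ubiquitin genes and activating enzymes 4 of 6 rose, with Ubb at 0.36 ± 0.03 (adjusted p = 0.00178) and the E1 enzyme Uba1 at 0.31 ± 0.03 (adjusted p = 0.00195). Near-identical ubiquitin repeats make the reads of Ubb uncertain. Of the deubiquitinases and ligases on the proteasome 2 of 6 rose, which is near those shares. These were the ligase Ube3c (0.28 ± 0.03, adjusted p = 0.00178) and the proteasome adaptor Ecpas (0.13 ± 0.04, adjusted p = 0.0295), whose call was lost without WT 1, WT 2, WT 3, GSH 1 or GSH 3 (adjusted p from 0.0581 to 0.0918).

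In the list of NFE2L1 and its partners 3 of 6 tested genes rose and 1 fell, beside 20.6% of all tested genes called higher and 16.4% lower. Nfe2l1 itself measured 70.5, 69.8 and 68.0 FPKM in WT and 70.8, 72.9 and 71.7 FPKM in GSH. Its GSH libraries lay just above the WT ones, and the change of 0.05 ± 0.03 did not pass (adjusted p = 0.200). The small MAF gene Maff rose by 0.30 ± 0.05 (adjusted p = 0.00563) and Keap1, the NFE2L2 adaptor for ubiquitination, by 0.15 ± 0.03 (adjusted p = 0.00710), while the small MAF gene Mafg fell by 0.10 on the log2 scale (adjusted p = 0.0433). NFE2L1 is known to be controlled by cleavage and degradation of its protein, which mRNA levels do not show.

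**Figure D4:**
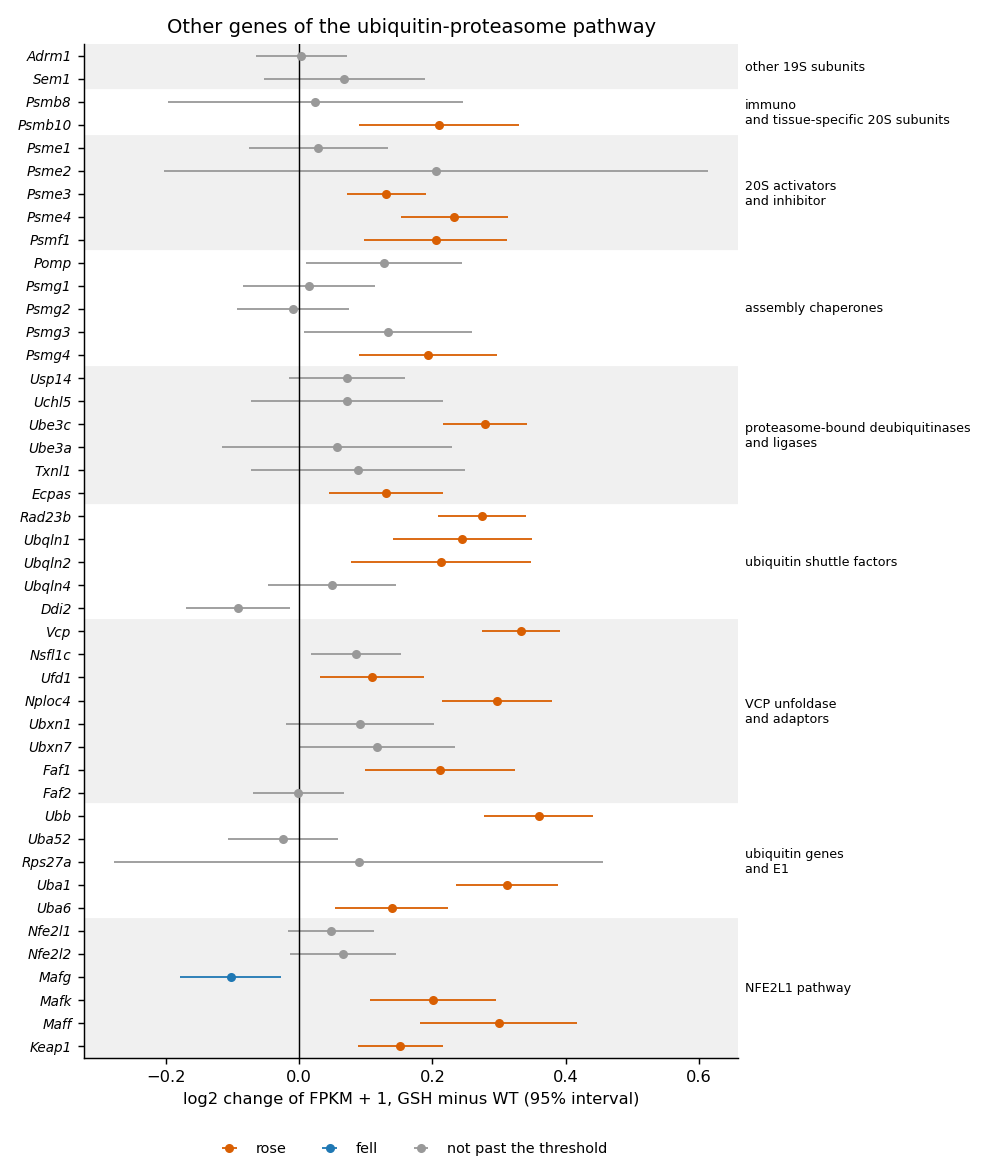
Log2 change of FPKM + 1 in GSH against WT for 44 of the tested pathway genes, with 95% intervals from limma, grouped by role. The 20 genes in orange rose, Mafg in blue fell, and grey genes did not pass the threshold; Ubb, Vcp and Uba1 lie furthest to the right among the plotted genes that passed.

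The immunoproteasome subunits, which replace the catalytic subunits after interferon exposure and in leukocytes, are given as ratios to the members they replace, side by side for the 2 tables and with no test between them. The FPKM ratio of Psmb8 to Psmb5, which it replaces, was 0.021 to 0.031 in the WT and GSH table and 4.37 to 7.08 in that of Ctrl and Cas9. The ratio of Psmb9 to Psmb6 was 0.0022 to 0.0055 in the first table and 0.800 to 1.03 in the second. In the first table Psmb9 rested on only 9 to 20 reads per library and was too low to be tested. The ratio of Psmb10 to Psmb7 was 0.497 to 0.590 and 0.762 to 1.23. The gene lengths inferred for the tables differed, and the leukocyte markers differed between them too (38.6 to 57.1 RPM against 3946 to 8092 RPM). In the second table these markers summed to 7274 RPM in Ctrl 3. They summed to 8092, 7782 and 3946 RPM in Cas9 1, 2 and 3. In that order of libraries the Psmb8 ratio was 4.37, 5.22, 7.08 and 5.11. The Psmb9 ratio was 0.800, 0.913, 1.03 and 0.930, and the Psmb10 ratio was 0.996, 1.23, 1.03 and 0.762. The part of leukocytes in the ratios, between the tables or within the second, was not tested. Within the first table, Psmb10 measured 10.6, 9.65 and 9.57 FPKM in WT and 11.4, 12.3 and 11.3 FPKM in GSH and rose by 0.21 ± 0.05 (adjusted p = 0.0194). Its GSH libraries were the higher ones, but the call was lost without WT 2, WT 3 or GSH 2 (adjusted p of 0.0595, 0.0577 and 0.0516). Psmb8 stood at 1.15 to 1.53 FPKM in WT and 1.196 to 1.48 FPKM in GSH, with overlapping groups and an adjusted p of 0.852.

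In the comparison of Cas9 with Ctrl 0 of the 34 members passed the test, and 0.0% of the 11407 genes tested did (limma; the 2 residual degrees of freedom come from Cas9 alone, and Ctrl 3 is assumed to vary alike). At an unadjusted p under 0.05 there were 0 members and 210 genes, and limma voom on recovered reads called 0 genes, with 190 at that unadjusted level. The members' median log2 change was 0.10 (range -0.06 to 0.31), beside -0.01 over all genes, and 29 of 34 were above 0. All 3 Cas9 libraries lay above Ctrl 3 for 14 members, as in 20.1% of all genes, and all lay below it for 1 member, as in 22.5% of all genes. With 1 Ctrl library the spread among Ctrl samples was not measured here.

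By subcomplex, the median change was 0.19 in the alpha ring, 0.17 in the beta ring, 0.04 in the ATPases and 0.06 in the non-ATPases. Psma2 measured 121 FPKM in Ctrl 3 and 142, 139 and 172 FPKM in Cas9 1, 2 and 3. It had the largest change of the members, 0.31 with a 95% interval from -0.15 to 0.78, and Cas9 3 was its highest library. Psmd2 measured 81.0 FPKM in Ctrl 3 and 73.8, 79.1 and 79.9 FPKM in Cas9. It was the only member with all Cas9 libraries below Ctrl 3, and its change was -0.06 with an interval from -0.41 to 0.28. Among the catalytic subunits, Psmb6 measured 120 FPKM in Ctrl 3 and 138, 133 and 146 FPKM in Cas9, all above Ctrl 3. Psmb7 measured 133 FPKM in Ctrl 3 and 130, 140 and 184 FPKM in Cas9, and Psmb5 measured 56.7 FPKM and 60.4, 48.2 and 59.5 FPKM, both with Cas9 libraries on either side of Ctrl 3. The intervals of the 34 changes together reached from -0.50 to 0.84.

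**Figure D5:**
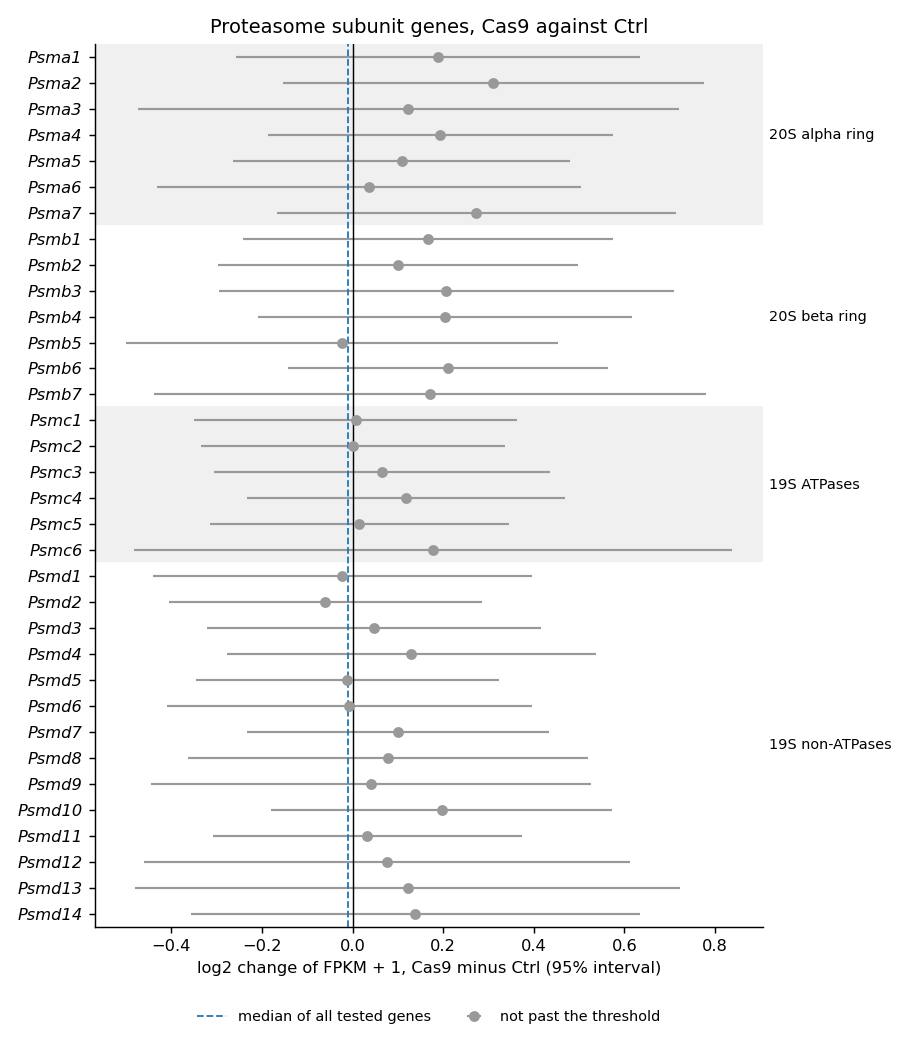
Log2 change of FPKM + 1 in Cas9 (3 libraries) against Ctrl (1 library) for each member, with its 95% interval from limma, grouped by subcomplex; the dashed line is the median of all tested genes. All 34 intervals include 0, and the points run from -0.06 for Psmd2 to 0.31 for Psma2.

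The members stood highest in Cas9 3. Against Ctrl 3 the members' median was 0.00 in Cas9 1, with 17 of 34 above, 0.07 in Cas9 2, with 27 above, and 0.22 in Cas9 3, with 33 above. Psmc6 lay furthest above Ctrl 3 in Cas9 3, by 0.51, with 96.6 FPKM beside 67.4 FPKM in Ctrl 3. Without Cas9 3 the median change was 0.02 and 21 of 34 were above 0. Of the Ctrl and Cas9 libraries, Cas9 3 also had the lowest leukocyte and the highest epithelial marker sum. Its 18 leukocyte markers summed to 3946 RPM, beside 7274 RPM in Ctrl 3 and 8092 and 7782 RPM in Cas9 1 and Cas9 2, and its 9 epithelial markers summed to 5916 RPM, beside 4988, 3717 and 5087 RPM. The part of these markers in the members' levels was not tested.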

How the data were processed

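The deposited values of 10 libraries were analysed (3 WT, 3 GSH, 1 Ctrl and 3 Cas9) of 12 labelled samples. Neither labels nor headers state a unit, and the authors' deposited values were taken as FPKM from the values themselves. Bowtie2 (2.2.3), HISAT2 (2), HTSeq (0.6.0) and the build mm8 appear in the submitters' processing notes without their roles, and how multi-mapping reads were counted is not given in the sources used here. FPKM divides by a library total, so a few abundant genes can move all others.

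Groups came from sample titles. Each table was fitted separately with limma 3.58.1 (R 4.3.3; lmFit, eBayes with a trend) on log2(FPKM + 1), over genes averaging at least 1 FPKM, with group as the only term and Benjamini-Hochberg adjustment at 0.05. Fold changes on that scale understate those of low genes. Standard errors and 95% intervals are limma's. Whole reads were recovered from the FPKM steps for 99.99% and 99.79% of genes above 0 (within 0.01 read). These reads gave depth, RPM and an added voom fit. Symbols matched 30190 of 30803 Ensembl identifiers. The fits were tested on simulated data with 1 fixed spread for all genes, which was not fitted to these libraries. For GSH against WT, 22 of 50 genes changed 1.25-fold were called in the right direction, and 45 of 50 changed 1.5-fold. There 15 unchanged genes were called as well.

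The members, lists and motifs were chosen with earlier results of these data known. Values in each library are given for the catalytic subunits and, in each subcomplex, the 2 members with the smallest p and the 1 with the largest p in GSH, and for the largest rise and fall in Cas9. In each pathway list the 2 genes with the smallest p are named, with Psmb8, Psmb9, Psmb10, Nfe2l1 and Pomp; some are not reported here. Other members named with a value, and Mafg and Mafk, were added after their values were seen. Replicate numbers were not used to pair the WT and GSH libraries in the main fit. Deviations of same-numbered libraries from their group means correlated at 0.48, -0.11 and 0.21, and those of differently numbered ones at -0.49 to 0.39. With so few libraries these values cannot show whether the libraries were paired. Alternatives changed the pseudocount, filter, scaling, variance trend, unit, block and libraries. Python 3.11.15 with pandas 2.3.3 and matplotlib 3.10.9 was used.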

Additional observations from a re-analysis of the deposited data

How the results depend on the processing

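No member was called lower under any alternative run. The members called higher in GSH numbered 29 with a pseudocount of 0.1 and without a variance trend, 24 without a filter, 26 with relative log expression scaling and 31 with voom. Over all genes, 2537, 2497, 1697, 2183 and 2946 were called higher in these settings, in that order. The fit without a filter covered more genes than the others. Leaving out 1 library gave 20 to 28, with medians of 0.18 to 0.22, 1663 to 2089 genes called higher and 1335 to 1631 lower over all genes. The median moved to 0.15 with the total without mitochondrial genes. In WT 3, GSH 2 and GSH 3 only, the median was 0.15, with 0 members called and 0 genes higher and 0 lower. In WT 1, WT 2 and GSH 1 only, it was 0.23, with 0 members, 3 genes higher and 1 lower; with 1 residual degree of freedom these fits hold few samples. With the replicate block 26 members were called higher with a median of 0.19, beside 2145 of all tested genes. Not every library correlated best with its own number. No paired analysis was possible for Cas9 because it shares only 1 number with Ctrl.

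The single genes that changed sign were not called in either direction. Adrm1 was at -0.033 with the total without mitochondrial genes, -0.015 with relative log expression scaling, -0.0072 in WT 3, GSH 2 and GSH 3 only, and between -0.013 and 0.0175 with a library left out. Psmb8 was at -0.033 with a term for those libraries, -0.097 within them, and at -0.016, -0.014 and -0.029 without WT 1, WT 2 and GSH 3 (range with a library left out, -0.029 to 0.103). Psma4 and Sem1 were at -0.0039 and -0.0059 within those libraries. In Cas9, Psmb5 turned to 0.080 without Cas9 2 and was at -0.080 without Cas9 1. Without 1 Cas9 library the members' median ran from 0.02 to 0.14, and 0 genes were called.

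Over the single genes named in GSH and the alternatives other than the 3-library fits, 408 values kept direction and call, 27 lost the call, 4 gained it and 9 changed sign. The mitochondrial rescaling was not run for Cas9, where mitochondrial genes were not analysed here. The intervals of the Cas9 changes are wide and include 0 for all 34 members, which does not show that the members were unchanged.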
